A study of Mus musculus with 12 samples.

Results

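Chemokines are small secreted proteins that attract leukocytes, and their receptors read those gradients. The genes described here are all protein-coding genes whose name in the deposited table is that of a chemokine ligand (Ccl, Cxcl, Cx3cl1, Xcl1, Pf4, Ppbp) or of a signalling or atypical chemokine receptor (Ccr, Cxcr, Cx3cr1, Xcr1, Ackr). They were chosen by name alone and number 68 of 53801 genes: 46 ligands, 18 signalling receptors and 4 atypical receptors. The 68 gene IDs carry 63 names, because 4 names (Ccl19, Ccl21a, Ccl21b and Ccl27) are shared by 9 IDs. Those 9 lie on chromosome 4 and on scaffolds. Their sequences were not compared, so how fragments were divided among IDs of the same name is uncertain. A gene named as a further chemokine but annotated as a pseudogene, Cxcl11, was not included.

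Chemokine ligands fall into families by the spacing of their leading cysteines, and their receptors couple to Gi proteins, which turn a ligand gradient into directed movement. In tumours, CC ligands of CCR2 draw in monocytes, CXC ligands of CXCR2 draw in neutrophils, and ligands of CXCR3 draw in T cells. Atypical receptors such as ACKR3 bind chemokines without Gi signalling and remove them.

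RNA was measured in 12 tumours, 3 in each of 4 groups. Cells of the mouse line LLC (Lewis lung carcinoma), which forms tumours when transplanted, were mixed with Matrigel and injected into the flanks of female C57BL/6 mice aged 6 to 8 weeks, 6 animals to a group. The vehicle group (replicates 2, 3 and 5) is the control. The cisplatin group (1, 2 and 3) received a platinum drug that cross-links DNA. The brivanib group (2, 3 and 5) received a drug that blocks the kinases of VEGF and FGF receptors, and the combination group (2, 3 and 4) received both drugs. Treatment was given 2 times a week for 4 weeks into the peritoneum, from a tumour volume of 100 mm3. A mouse could carry a tumour on each flank, and the labels do not say which tumours share an animal, so the p-values speak to the spread among these tumours and no more. All tumours came from 1 cell line in an immunocompetent strain, and the RNA is that of whole tumours. Fewer cells of a type and less RNA per cell therefore cannot be told apart in any value below.

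Values are FPKM, fragments scaled by transcript length and by a total per library, which allow levels of different genes to be set side by side. Fragments recovered from the values numbered 17.2 to 22.8 M (M, 1e6) in 11 libraries and 30.9 M in brivanib 5. In brivanib 5, features that look ribosomal by name (named after their values were seen) took 38.3% of fragments, against 0.316% to 0.692% in the other libraries. The total behind its FPKM values was 21.0 M, below its 30.9 M fragments, and its FPKM summed to 921510, against 471828 to 527657 in the others. Marker lists for other cell types differed between libraries. The score of a list, its mean log2(FPKM + 1), was 0.133 to 0.198 in vehicle for 12 skeletal muscle markers, but 4.37 in brivanib 3, 4.10 in brivanib 5 and 2.14 in combination 2. It was 0.146 in brivanib 2. The adipocyte score was 0.542 to 0.572 in vehicle, 1.15 to 3.56 in brivanib and 2.37 to 2.66 in the combination. The erythroid score of 5 markers was 7.52 to 8.41 in vehicle, 0.537 to 3.91 with cisplatin, 5.72 to 8.27 with brivanib and 0.539 to 1.24 with the combination. Of 6 epithelial markers, Krt18 was listed at 0 in every library, and the epithelial score was 0.359 to 0.843, so carcinoma cells could not be followed by these markers.

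Of the 68 members, 32 had a mean of at least 1 FPKM over the 12 libraries and were tested: 24 ligands, 7 signalling receptors and the atypical receptor Ackr3. A further 24 were above 0 in at least 1 library but below that limit. The remaining 12, Ccr4 and 11 ligands, were listed at 0 in all 12. Just inside the limit stood Cxcr2 at a mean of 1.14 FPKM, and just outside it Xcl1 at 0.967 FPKM.

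The ligand pool was dominated by a few monocyte and macrophage chemokines. Ccl2, which recruits monocytes through CCR2, had the highest level of all ligands in 8 libraries, and Ccl6, a ligand of CCR1 made by myeloid cells, in the other 4. Ccl2 stood at 252, 285 and 427 FPKM in vehicle, at 158, 330 and 160 with cisplatin, at 412, 110 and 282 with brivanib and at 168, 233 and 168 with the combination. The combination values all lay below the vehicle values, while the other groups overlapped vehicle. In no comparison did Ccl2 pass the test; its log2 fold change against vehicle was -0.74 ± 0.43 (SE) in the combination (adjusted p = 0.388, limma), and 0.46 once the adipocyte score entered the fit. The share of Ccl2 in the summed ligand FPKM was 45.2% to 57.7% in vehicle, 21.3% to 34.1% with cisplatin, 15.1% to 29.9% with brivanib and 22.7% to 29.5% with the combination. The vehicle range does not overlap any treated range. Likewise the ratio of Ccl2 to Ccl6 was 3.43 to 6.50 in vehicle, 0.849 to 1.94 with cisplatin, 0.602 to 1.86 with brivanib and 0.897 to 1.31 with the combination. These shares and ratios are descriptions and were not tested.

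Below Ccl2 and Ccl6 followed Ccl8 and Ccl7, ligands of CCR2 and related receptors, the platelet and macrophage chemokine Pf4, Ccl9, Ppbp (a platelet precursor cleaved to a CXCR2 ligand), Ccl12 (a CCR2 ligand of mice), Cxcl3, Cxcl1, Cxcl2 and Ccl5. The summed level of all ligands was 526 to 739.9 FPKM in vehicle, 468 to 994.2 with cisplatin, 727.2 to 1469 with brivanib and 725.4 to 787.8 with the combination. All groups overlapped vehicle in this sum.

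**Figure D1:**
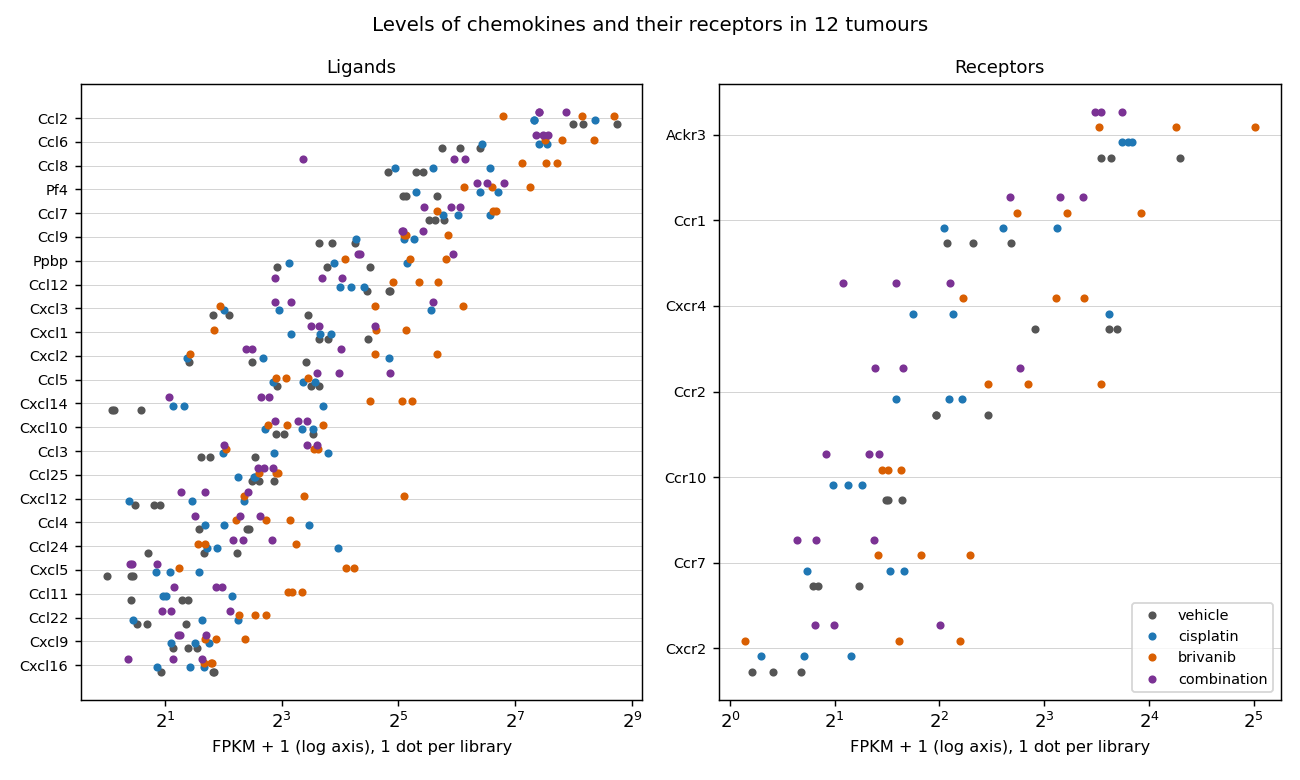
Level of each tested ligand (left) and receptor (right), ordered by mean; the x axis is FPKM + 1 on a log axis and each dot is 1 library, coloured by group. Ccl2 and Ccl6 lead the ligands, and Ackr3 leads the receptors in 11 of 12 libraries.

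Receptor levels lay below those of the leading ligands. Ackr3, the scavenger of Cxcl12, had the highest receptor level in 11 libraries and Cxcr4, the signalling receptor for Cxcl12, in 1. Ackr3 was at 13.6 ± 4.40 FPKM (SD, n = 3) in vehicle, 12.9 ± 0.442 with cisplatin, 20.0 ± 10.5 with brivanib and 11.1 ± 1.15 with the combination, a spread that leaves the groups indistinct except that every combination value lay below every cisplatin value. Next came Ccr1 (receptor for Ccl6, Ccl9 and Ccl3), at 4.21 ± 1.13 FPKM in vehicle and 9.39 ± 4.37 with brivanib. Ccr2, which marks inflammatory monocytes, was at 3.44 ± 0.934 in vehicle and 7.12 ± 3.16 with brivanib. Ccr10, Ccr7 and Cxcr2 were lower still.

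Under brivanib alone several ligands rose, and none of the 8 tested receptors passed the test. Of 32 tested members 6 rose and 0 fell, in limma on log2(FPKM + 1) at an adjusted p under 0.05, where 1.71% of all 14246 tested genes rose. The 6 were Cxcl14, Ccl6, Ccl11, Ccl9, Cxcl5 and Cxcl12. The median log2 fold change was 0.89 over the 32 members, with 27 above 0, and -0.01 over all tested genes. Ligands had a median of 1.2 (21 of 24 above 0) and receptors of 0.85 (6 of 8). Cxcl5 and Cxcr2 are counted here, though both reached the limit for testing through groups that include brivanib. Every brivanib library lay above every vehicle library for 15 members, and below for 0. Over all genes tested 8.95% were separated upward and 6.9% downward.

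Cxcl14, a chemokine of fibroblasts and epithelia that acts on monocytes and dendritic cells, showed the largest difference of any member. It was at 0.0697, 0.0986 and 0.513 FPKM in vehicle (3, 4 and 18 fragments), and at 36.4, 21.8 and 32.4 FPKM in brivanib 2, 3 and 5. With cisplatin it was at 12.0, 1.2 and 1.49, and with the combination at 5.22, 1.1 and 5.87 FPKM. All 9 treated libraries lay above all vehicle libraries, and the brivanib libraries above all others. The log2 fold change against vehicle was 4.66 ± 0.61 with brivanib (adjusted p = 0.00348, limma). The gene lies on chromosome 13 at 56288643 to 56296551, minus strand (GRCm38). In its promoter, the 250 bases before and 50 after the annotated start, capitals mark GAAACAGAAA, a match on the other strand to the interferon element (TTTC, any 2 bases, TTTC) 172 bases before the start. It is shown because this gene moved most. The window is chr13:56296502-56296801, minus strand, from RefSeq on GRCm38.p6.
Cxcl14: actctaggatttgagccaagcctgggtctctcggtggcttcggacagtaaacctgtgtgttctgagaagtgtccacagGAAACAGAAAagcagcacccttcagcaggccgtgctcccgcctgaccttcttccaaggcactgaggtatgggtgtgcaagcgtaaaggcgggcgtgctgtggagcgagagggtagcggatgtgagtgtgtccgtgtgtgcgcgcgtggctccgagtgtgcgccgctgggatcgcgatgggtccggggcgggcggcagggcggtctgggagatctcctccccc
Of 32851 promoters of this length, 3.44% hold the interferon letters on either strand. A match is a description of letters, not a bound site.

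Cxcl12, the stromal ligand of Cxcr4 and Ackr3, lies on chromosome 6 at 117168535 to 117181367, plus strand. It was at 0.398, 0.751 and 0.884 FPKM in vehicle and at 33.2, 9.39 and 4.09 in brivanib 2, 3 and 5. All brivanib values lay above all vehicle values, and brivanib 2 stood well above the others. The log2 fold change was 2.87 ± 0.62 (adjusted p = 0.0382, limma). Much of the spread lay in 1 transcript of 1878 bases, which was at 28.9 FPKM in brivanib 2, 7.15 in brivanib 3 and 0.0510 in brivanib 5. How fragments were divided between the overlapping isoforms of Cxcl12 is uncertain. In recovered fragments over the whole gene the values were 49, 82 and 63 in vehicle and 1634, 545 and 346 with brivanib. Its receptor Cxcr4 was at 6.52, 11.3 and 12.0 FPKM in vehicle and at 9.43, 3.67 and 7.64 with brivanib, which overlap.

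Ccl11 (eotaxin), which recruits eosinophils through CCR3, lies on chromosome 11 at 82057823 to 82062955, plus strand. It was at 1.45, 0.333 and 1.64 FPKM in vehicle and at 8.04, 7.61 and 9.19 with brivanib. Its brivanib values were the tightest of the 6 ligands, and the log2 fold change was 2.17 ± 0.35 (adjusted p = 0.00803). The receptor Ccr3 was below the limit, at no more than 0.567 FPKM in any library. The eosinophil markers Epx and Ear1 were listed at 0 in all libraries. The score of the 6 eosinophil markers was 0.096 to 0.149 in vehicle, 0.184 to 0.251 with cisplatin, 0.143 to 0.385 with brivanib and 0.107 to 0.176 with the combination. The 1 eosinophil marker tested had a log2 fold change of 0.82 with brivanib. Its unadjusted p was under 0.05 in limma, as for 1663 of all 14246 genes, and it did not pass the threshold. The part of eosinophils in the Ccl11 values was not tested. Ccl24, the other tested eotaxin, was at 2.18, 0.626 and 3.70 FPKM in vehicle and at 2.22, 1.97 and 8.52 with brivanib, so these groups overlapped.

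Ccl6 and Ccl9, neighbouring ligands of CCR1, moved together. Ccl6 was at 52.8, 83.0 and 65.6 FPKM in vehicle, at 186, 170 and 85.6 with cisplatin, at 222, 182 and 326 with brivanib and at 162, 178 and 187 with the combination. Every treated library stood above every vehicle library. Ccl9 was at 11.4, 18.1 and 13.6 FPKM in vehicle, at 33.4, 37.4 and 18.3 with cisplatin, at 33.1, 33.9 and 56.8 with brivanib and at 32.3, 32.9 and 42.0 with the combination, and was separated in the same way. With brivanib the log2 fold change was 1.82 ± 0.28 for Ccl6 (adjusted p = 0.00662) and 1.44 ± 0.27 for Ccl9 (adjusted p = 0.0192). The score of 5 monocyte markers was 3.80 to 4.01 in vehicle, 4.08 to 4.37 with cisplatin, 4.37 to 4.74 with brivanib and 4.35 to 4.78 with the combination. Its markers went both ways against vehicle. With cisplatin 2 of 5 had a log2 fold change above 0 (median -0.026, highest 1.7). With brivanib 4 of 5 did (median 0.633, lowest -0.63), and with the combination 3 of 5 (median 0.145, highest 3.59). The part of the monocyte score in these values was not tested. The ratio of Ccl6 to Ccl9 stayed between 4.46 and 6.70 over the 12 libraries. The promoters are shown because the genes lie side by side on chromosome 11 and moved together. They share a longest run of 13 bases, given in capitals, which begins 55 bases before the start in Ccl6 and 14 bases before it in Ccl9. On either strand that run stands in 6 of 32851 promoters (0.0183%). Because it was picked as the longest match between these windows, its rarity says nothing about a shared control site. The windows are chr11:83593038-83593337 and chr11:83578587-83578886, both on the minus strand, from RefSeq on GRCm38.p6.
Ccl6: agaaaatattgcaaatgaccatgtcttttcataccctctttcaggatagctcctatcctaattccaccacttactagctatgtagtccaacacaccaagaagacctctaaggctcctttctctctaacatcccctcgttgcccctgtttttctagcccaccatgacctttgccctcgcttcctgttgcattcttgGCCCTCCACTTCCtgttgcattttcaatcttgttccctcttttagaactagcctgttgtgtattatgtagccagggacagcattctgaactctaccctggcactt
Ccl9: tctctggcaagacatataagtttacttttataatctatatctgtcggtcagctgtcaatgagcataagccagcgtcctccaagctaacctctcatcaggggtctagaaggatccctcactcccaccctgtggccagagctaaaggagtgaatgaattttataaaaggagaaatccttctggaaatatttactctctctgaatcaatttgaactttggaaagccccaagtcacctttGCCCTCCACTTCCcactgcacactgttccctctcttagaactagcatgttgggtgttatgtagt

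Cxcl5, a neutrophil attractant that acts through CXCR2, lies on chromosome 5 at 90759360 to 90761624, plus strand. It was at 0.373, 0 and 0.335 FPKM in vehicle and at 16.2, 1.36 and 17.8 in brivanib 2, 3 and 5. Brivanib 3 stood apart from the other brivanib libraries and below cisplatin 1 (2.0 FPKM). The group means were 0.236 FPKM in vehicle, 1.31 with cisplatin, 11.8 with brivanib and 0.498 with the combination, so Cxcl5 reached the limit for testing through the brivanib group and its place among the 6 is no support for them. The log2 fold change was 2.90 ± 0.61 (adjusted p = 0.0326). Without the filter on low values the adjusted p was 0.0721. The value depended on which libraries were included, falling to 2.38 without brivanib 5 (adjusted p = 0.138) and to 2.44 without brivanib 2 (adjusted p = 0.102).

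A further 9 members were separated from vehicle in every brivanib library but missed the threshold. Ccl8 was at 38.3, 42.0 and 27.3 FPKM in vehicle and at 209, 137 and 184 with brivanib (log2 fold change 2.27 ± 0.61, adjusted p = 0.109). Fitted on the vehicle and brivanib libraries alone, its adjusted p was 0.00192, and without combination 3, where Ccl8 was at 9.28 FPKM, it was 0.00682. Ccl8 missed the threshold in the remaining 20 of 22 alternatives (limma adjusted p up to 0.360). Cxcl12 and Cxcl5 lost their calls in the fit on these 2 groups alone. Pf4 was at 32.9, 49.4 and 34.1 FPKM in vehicle and at 95.7, 68.4 and 151 with brivanib (1.37 ± 0.35, adjusted p = 0.0839). Without cisplatin 3 the adjusted p of Pf4 was 0.0243, and Pf4 missed the threshold in 21 of 22 alternatives (limma adjusted p up to 0.295). The score of 5 platelet markers overlapped, at 0.268 to 0.495 in vehicle and 0.185 to 0.477 with brivanib, with Gp6 listed at 0 throughout. Ccl22, a dendritic cell ligand of CCR4, was at 0.441, 0.610 and 1.57 FPKM in vehicle and at 5.63, 4.82 and 3.80 with brivanib (1.65 ± 0.43, adjusted p = 0.0908). Its adjusted p was 0.0318 without cisplatin 3, and it missed the threshold in 19 of 21 alternatives (limma adjusted p up to 0.380). Among the others, Ccr1, Ccr2, Ccr7, Ccl12 and Cxcl9 had log2 fold changes of 0.94 ± 0.33, 0.82 ± 0.36, 0.89 ± 0.31, 0.59 ± 0.27 and 0.61 ± 0.24.

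**Figure D2:**
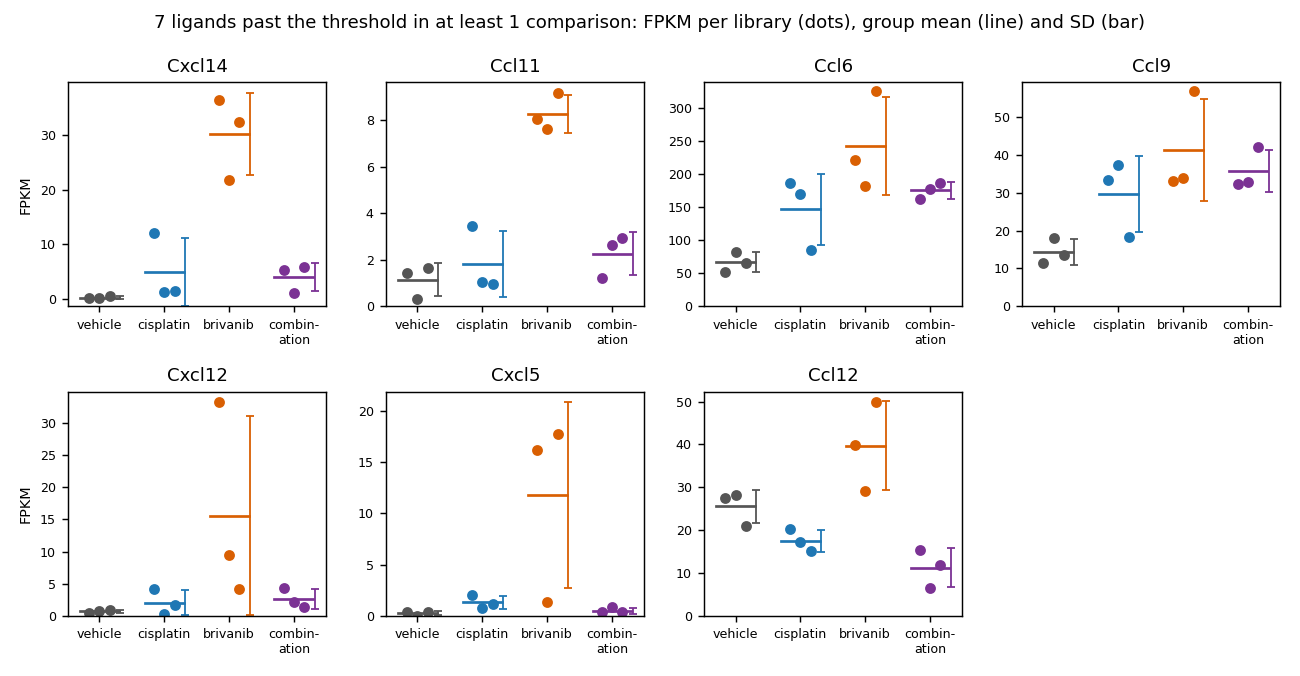
FPKM of 7 ligands that passed the test in at least 1 comparison; each dot is 1 library, the line is the group mean and the bar the SD over 3 libraries. The brivanib dots of Cxcl14 and Ccl11 stand above those of all other groups, and brivanib 3 stands apart for Cxcl5.

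Marker scores of some other cells were higher with brivanib than in vehicle, and others were not. The endothelial score (8 markers) was 3.145 to 3.381 in vehicle and 2.936 to 3.591 with brivanib. The NK cell score (6 markers) was 2.712 to 3.052 and 2.503 to 2.685 in these groups. The fibroblast score (10 markers) was 3.87 to 4.75 in vehicle, 5.98 to 6.10 with brivanib and 3.77 to 4.76 with the combination. The macrophage score (10 markers) was 3.56 to 4.27, 5.03 to 5.38 and 3.14 to 4.89 in the same groups, and the mast cell score (6 markers) 0.695 to 1.45, 1.89 to 2.82 and 0.507 to 1.1. Their part in the chemokine values was not tested. With the muscle score as a covariate 0 of the 6 brivanib calls passed, and with the adipocyte score 1, Cxcl5. Over all genes the share called in either direction went from 1.81% to 0.407% and 0.147% with these covariates, and the median log2 fold change of the 32 members from 0.89 to 1.11 and 1.25. Cxcl14 had log2 fold changes of 4.48 and 4.17 with the muscle and adipocyte covariates (adjusted p 0.0521 and 0.0562), Ccl6 of 1.86 and 1.89 (0.0707 and 0.0636) and Ccl11 of 2.25 and 1.93 (0.0778 and 0.109). Leaving out vehicle 2 or vehicle 5 left 3 members called, Ccl11, Ccl6 and Cxcl14. Over all genes the share called was then 0.87% and 1.12%. The adjusted p of Ccl9 was 0.102 and 0.0729 in these fits, and it was 0.0777 without brivanib 5. Cxcl12 lost its call without any one of vehicle 2, 3 or 5 (adjusted p 0.160, 0.116 and 0.0956), of brivanib 2 or 3 (0.0796 and 0.0804), or of cisplatin 3, combination 2 or combination 3 (0.0551, 0.0510 and 0.0555). In limma-voom on recovered fragments Cxcl12 and Cxcl5 missed the threshold (adjusted p 0.0740 and 0.159) and the other 4 passed. Cxcl5 likewise lost its call without vehicle 2, 3 or 5 (0.107, 0.131 and 0.0912), cisplatin 2 (0.0512) or combination 2 (0.0538).

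The combination of both drugs changed 3 of 32 members against vehicle. Ccl6 and Ccl9 rose and Ccl12 fell, where 1.82% of all tested genes rose, 0.519% fell and 2.34% thus moved in either direction. The median log2 fold change of the members was 0.22, against 0.04 over all genes tested. Ccl6 rose by 1.40 ± 0.28 (adjusted p = 0.0289) and Ccl9 by 1.27 ± 0.27 (adjusted p = 0.0357), limma. Ccl12 was at 27.5, 28.1 and 21.0 FPKM in vehicle, at 20.2, 17.3 and 15.0 with cisplatin, at 39.9, 29.2 and 50.02 with brivanib and at 15.3, 6.40 and 11.9 with the combination. Its cisplatin and combination values lay below, and its brivanib values above, all vehicle values. The log2 fold change in the combination was -1.18 ± 0.27 (adjusted p = 0.0428). In limma-voom on the recovered fragments 1 of the 3 calls remained, Ccl6. All 5 erythroid markers fell in the combination against vehicle (median log2 fold change -8.33) and against brivanib (-6.96), and with cisplatin (-6.52); their part in the chemokine values of these comparisons was not tested.

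Cxcr4 fell short of the threshold in the combination, at 2.01, 1.11 and 3.29 FPKM against 6.52, 11.3 and 12.0 in vehicle. These groups did not overlap, and the log2 fold change was -1.82 ± 0.46 (adjusted p = 0.0628). Without cisplatin 2, which had 11.3 FPKM, that p was 0.0294, but Cxcr4 missed the threshold in 20 of 22 alternatives (limma adjusted p up to 0.564). Pf4, at 91.0, 80.0 and 111 FPKM, also stood above vehicle (1.27 ± 0.35, adjusted p = 0.0784, and 0.0398 without cisplatin 3). It missed the threshold in 20 of 22 alternatives (limma adjusted p up to 0.281). Every combination library lay above vehicle for 6 members (Ccl6, Pf4, Ccl9, Cxcl14, Cxcl12 and Cxcr2) and below it for 4 (Ccl2, Ccl12, Cxcr4 and Ccr10), where 17.2% and 9.35% of all genes were so separated. The 3 calls were sensitive to single libraries. Without vehicle 2, 3 or 5 or combination 2, 3 or 4, 0 of 32 members passed. Over all genes the share called in these fits was 0.288%, 0.147%, 0.695%, 0.323%, 0.351% and 2.36% in that order, against 2.34% with all libraries. The adjusted p of Ccl6 was 0.116, 0.0742, 0.0798, 0.0846, 0.0933 and 0.0597 in the same order. The adjusted p of Ccl9 was then 0.131, 0.0801, 0.0913, 0.0918, 0.0951 and 0.0755. That of Ccl12 was 0.138, 0.149, 0.0711, 0.0577, 0.111 and 0.0597, and 0.0527, 0.0569 and 0.0562 without cisplatin 1, 2 and 3.

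Set against brivanib alone, the combination had 5 members lower and 0 higher, where 1.85% of all genes fell and 2.02% rose. The 4 described here are Ccl12, Cxcl14, Ccl11 and Cxcl5. Cxcl5 reached the limit for testing through the brivanib group, so its place among the 5 is no support for them. The median log2 fold change of the 32 members, Cxcl5 and Cxcr2 included, was -0.53, with 4 above 0, and that of all genes 0.04. This comparison and that of brivanib against vehicle share the brivanib libraries, so their values are given side by side only. Ccl12 fell by 1.78 ± 0.27 on the log2 scale (adjusted p = 0.00905). Cxcl14 fell by 2.77 ± 0.61 (adjusted p = 0.0304).

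Ccl11, at 1.23, 2.65 and 2.93 FPKM in the combination, fell by 1.54 ± 0.35 (adjusted p = 0.0343). Cxcl5, at 0.349, 0.817 and 0.328 FPKM, fell by 2.62 ± 0.61 (adjusted p = 0.0383). For each of the 4 the combination values lay below all brivanib values. In all, 11 members were separated downward (9.14% of all genes) and 1 upward, Ccl5 (14.1%). Ccl8, at 60.6, 9.28 and 69.7 FPKM in the combination, missed the threshold (-2.30 ± 0.61, adjusted p = 0.0593). It passed without combination 4 (adjusted p = 0.0372) and in limma-voom (0.0405), where Cxcl5 did not (0.136). In 19 of 22 alternatives Ccl8 missed the threshold (limma adjusted p up to 0.168). Fitted on the 2 groups compared alone, Ccl12 missed the threshold (limma adjusted p = 0.0513). Ccl11 and Cxcl14 passed there, where 0.969% of all genes were called. The 1 call kept without brivanib 2, brivanib 5, combination 2 or combination 3 was Ccl12. Over all genes the share called in these fits was 3.21%, 1.5%, 1.19% and 0.428%, against 3.87% with all libraries. In that order of libraries the adjusted p of Cxcl14 was 0.0662, 0.0938, 0.0614 and 0.115, that of Ccl11 0.0613, 0.108, 0.113 and 0.0911, and that of Cxcl5 0.0912, 0.126, 0.105 and 0.0986. Ccl11 also missed the threshold without brivanib 3 (0.0524). Cxcl5 missed it as well without vehicle 2, 3 or 5 (0.0570, 0.0538 and 0.0558), cisplatin 3 (0.0534) or combination 4 (0.0720), and with muscle as a covariate 2 members passed.

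**Figure D3:**
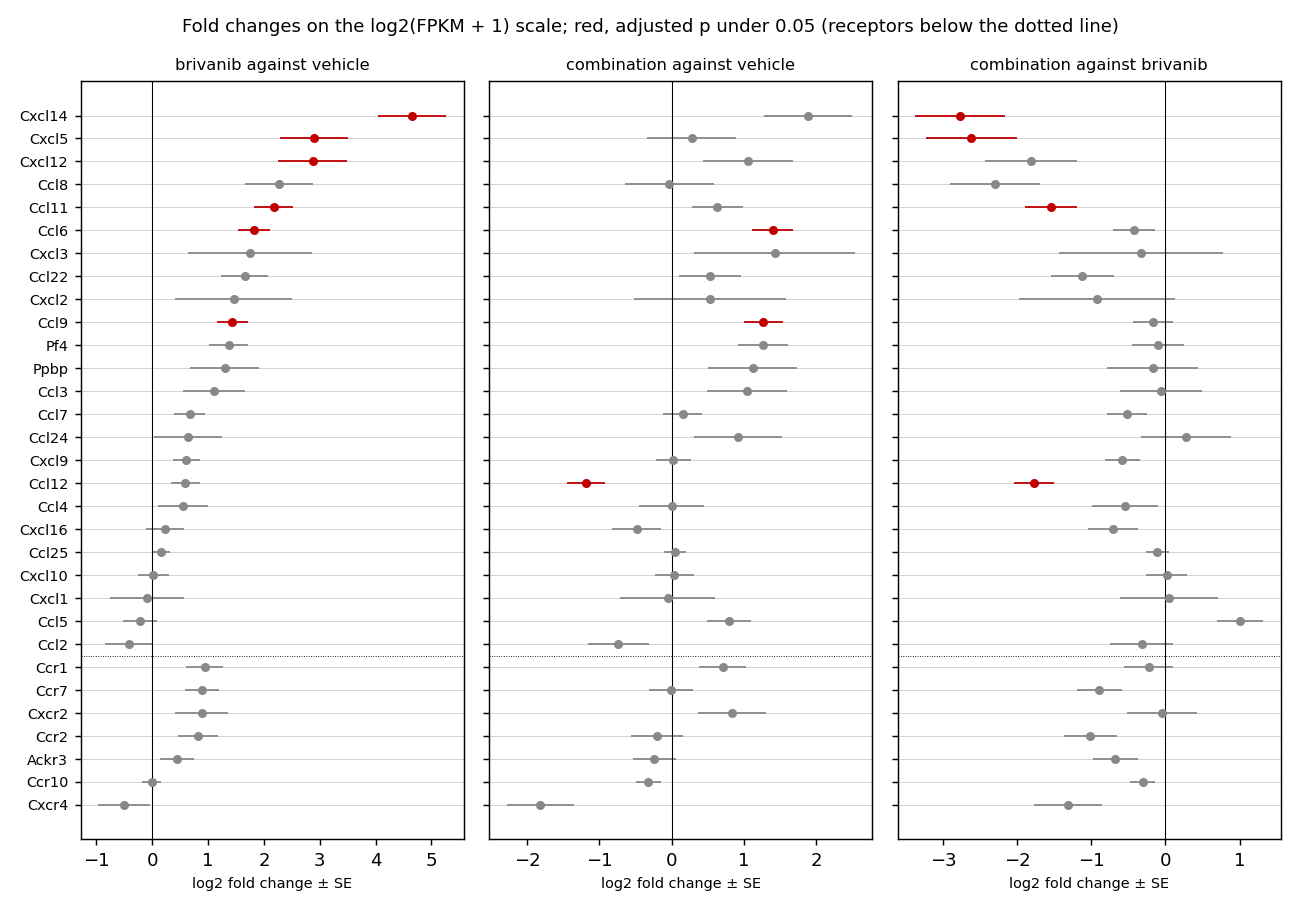
Log2 fold change on the log2(FPKM + 1) scale ± SE of tested members in 3 comparisons, ordered by the value in brivanib within ligands (above the dotted line) and receptors (below it); red marks an adjusted p under 0.05. The points lie mostly right of 0 for brivanib against vehicle and mostly left of 0 for the combination against brivanib.

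Ccl5, which attracts T cells and NK cells, went the other way. It was at 11.4, 10.4 and 6.58 FPKM in vehicle, at 9.33, 10.9 and 6.24 with cisplatin, at 9.91, 7.43 and 6.44 with brivanib and at 28.1, 14.8 and 11.2 with the combination. The combination values lay above all cisplatin and all brivanib values but overlapped vehicle at the lower end. The log2 fold change was 1.01 ± 0.31 against brivanib (adjusted p = 0.0904, and 0.0459 without combination 4) and 0.88 ± 0.31 against cisplatin (adjusted p = 0.694). Against brivanib Ccl5 missed the threshold in 20 of 22 alternatives (limma adjusted p up to 0.230). The T cell score of 9 markers was 0.155 to 0.453 in the combination and 0.709 to 2.02 in vehicle, and the NK cell score of 6 markers was 2.64 to 3.40 and 2.71 to 3.05. The interferon-induced ligands of CXCR3 overlapped between these groups: Cxcl9 was at 1.64, 1.94 and 1.19 FPKM in vehicle and at 2.25, 1.38 and 1.32 with the combination, and Cxcl10 was at 10.6, 7.27 and 6.51 FPKM in vehicle and at 8.75, 9.77 and 6.42 with the combination.

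Cisplatin alone changed 0 of 32 members in limma, where 0.19% of all genes were called in either direction (0.119% rose and 0.0702% fell). At an unadjusted p under 0.05 there were 5, beside 2036 of all 14246 genes, and limma-voom also called 0. The 5 with the smallest p were Ccl6 (1.07 ± 0.28, adjusted p = 0.128), Ccl9 (0.96 ± 0.27, adjusted p = 0.146), Cxcl14 (1.78 ± 0.61, adjusted p = 0.210), Pf4 (0.85 ± 0.35, adjusted p = 0.289) and Ccr10 (-0.42 ± 0.17, adjusted p = 0.294). Every cisplatin library lay above vehicle for 4 members, Ccl6, Ccl9, Cxcl14 and Cxcl5 (17% of all genes), and below it for 2, Ccl12 and Ccr10 (6.72%).

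Brivanib added to cisplatin, the combination against cisplatin, also changed 0 of 32 members in limma, as it changed 0% of all genes. At an unadjusted p under 0.05 there were 2, Ccl5 and Ccl12, beside 960 of all 14246 genes, and limma-voom called 0. Every combination library lay above every cisplatin library for 2 members, Ccl5 and Ccl25 (4.94% of all genes), and below for 1, Ackr3 (7.44%). Cxcl14 was at 4.91 ± 6.17 FPKM (SD, n = 3) with cisplatin and 4.06 ± 2.59 with the combination. The corresponding levels of Ccl11 were 1.81 ± 1.42 and 2.27 ± 0.911 FPKM, and both genes overlapped between these groups. The interaction asked whether brivanib acted alike in the presence and absence of cisplatin, and called 0 of 32 members (0.14% of all genes). At an unadjusted p under 0.05 there were 13 members, beside 1430 of all 14246 genes, and limma-voom called 0 members. The smallest p was that of Cxcl14, with an interaction of -4.55 ± 0.86 on the log2 scale (adjusted p = 0.0711). Cxcl5 (-3.51 ± 0.86, adjusted p = 0.160), Ccl11 (-1.89 ± 0.50, adjusted p = 0.185) and Ccl6 (-1.49 ± 0.40, adjusted p = 0.195) followed. Without brivanib 3, the interaction of Cxcl5 was -4.48 ± 0.34 and passed (adjusted p = 0.000896). Since Cxcl5 reached the limit for testing through the brivanib group, that call is no support for an interaction.

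The CXC ligands of CXCR2, the main neutrophil attractants, varied widely within groups. Cxcl3 was at 2.52, 3.27 and 9.95 FPKM in vehicle, at 6.76, 45.9 and 3.05 with cisplatin, at 23.1, 2.82 and 67.8 with brivanib and at 7.89, 47.5 and 6.39 with the combination. High values thus stood in cisplatin 2, brivanib 2, brivanib 5 and combination 3. Cxcl2 reached 27.5, 23.1, 49.3 and 15.2 FPKM in these 4 libraries and was at 1.60 to 9.67 in the other 8. Ppbp was at 34.5 to 60.4 against 6.59 to 21.9 FPKM, and the receptor Cxcr2, which marks neutrophils themselves, at 1.22 to 3.59 against 0.103 to 0.985. Of these genes, Cxcl2, Cxcl3, Ppbp and Cxcr2 passed in none of the 6 comparisons. The score of 9 neutrophil markers was 1.94 to 2.72 in these 4 libraries and 0.703 to 1.48 in the other 8. S100a8, an abundant neutrophil product, was at 17.4, 22.4, 40.6 and 28.9 FPKM in them. The granule genes Ngp and Camp were listed at 0 in 11 libraries each. The cytokine Il1b, an inducer of these ligands, was at 21.1, 18.2 and 34.0 FPKM in cisplatin 2, brivanib 2 and brivanib 5 but at 2.33 in combination 3. The part of neutrophil content in these values was not tested. Cxcl5 departed from the pattern, since it was at 0.805 FPKM in cisplatin 2 and 0.817 in combination 3.

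**Figure D4:**
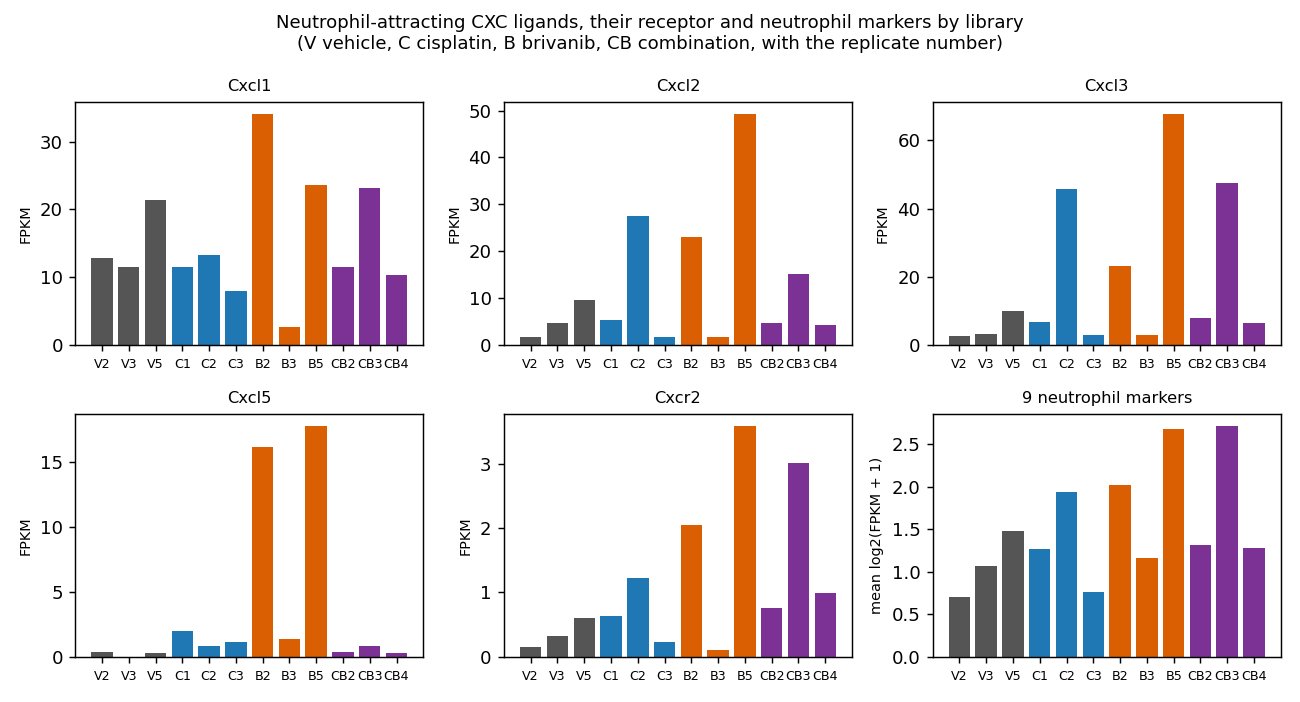
Bars give the FPKM of 4 CXC ligands and their receptor Cxcr2, and the mean log2(FPKM + 1) of 9 neutrophil markers, in each of the 12 libraries, coloured by group. Cisplatin 2, brivanib 2, brivanib 5 and combination 3 are high for Cxcl2, Cxcl3, Cxcr2 and the markers, whereas Cxcl5 is high in brivanib 2 and brivanib 5.

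The promoters of Cxcl1, Cxcl2 and Cxcl3 are shown because these neighbours on chromosome 5 share a stretch of letters and because Cxcl2 and Cxcl3 varied together across libraries. Capitals mark GGGAATTTCC, a match to the NF-kB decamer (GGGA, any base, TTTCC), which begins 71, 97 and 73 bases before the start of Cxcl1, Cxcl2 and Cxcl3. In Cxcl3 a TATAAA box 30 bases before the start is also in capitals. The windows are chr5:90890995-90891294, chr5:90903649-90903948 and chr5:90785851-90786150, all on the plus strand, from RefSeq on GRCm38.p6.
Cxcl1: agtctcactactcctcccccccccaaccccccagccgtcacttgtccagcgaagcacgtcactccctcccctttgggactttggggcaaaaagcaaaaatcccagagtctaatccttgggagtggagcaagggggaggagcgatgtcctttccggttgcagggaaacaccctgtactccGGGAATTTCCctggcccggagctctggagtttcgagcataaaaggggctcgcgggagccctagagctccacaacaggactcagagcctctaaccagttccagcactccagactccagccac
Cxcl2: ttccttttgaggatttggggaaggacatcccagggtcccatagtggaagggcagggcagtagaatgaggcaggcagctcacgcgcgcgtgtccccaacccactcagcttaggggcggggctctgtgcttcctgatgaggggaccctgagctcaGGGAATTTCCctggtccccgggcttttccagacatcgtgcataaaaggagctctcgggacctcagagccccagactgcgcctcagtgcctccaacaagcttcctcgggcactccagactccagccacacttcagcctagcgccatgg
Cxcl3: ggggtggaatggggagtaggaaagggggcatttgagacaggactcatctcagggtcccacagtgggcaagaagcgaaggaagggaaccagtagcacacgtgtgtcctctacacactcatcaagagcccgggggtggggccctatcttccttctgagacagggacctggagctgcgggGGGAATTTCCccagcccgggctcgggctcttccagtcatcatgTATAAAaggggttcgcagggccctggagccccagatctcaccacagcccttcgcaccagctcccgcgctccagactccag
The decamer, on either strand, was found in the promoters of 3 of 21 tested members with an entry in the RefSeq table, these 3, and in 0.411% of 32851 promoters. Cxcl1, with the same letters, was less tied to the 4 libraries: it was at 34.1, 23.7 and 23.1 FPKM in brivanib 2, brivanib 5 and combination 3 but at 13.3 in cisplatin 2, below vehicle 5 (21.4). For comparison, letters of AP-1 (TGANTCA) stood in 4 of the 21 and 7.81% of all promoters, and those of STAT6 (TTC and GAA with any 4 bases between) in 0 of 21 and 6.95%. Of the 63 names, 47 were matched in that table; Ccl11 and Cxcl5 were not.

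Members lie in clusters, and 2 blocks of CC ligands on chromosome 11 differed in the combination against vehicle. In the block from 83525778 to 83664683, which holds Ccl5, Ccl9, Ccl6, Ccl3 and Ccl4, all 5 had a positive log2 fold change in the combination against vehicle, with a median of 1.04. Of these 5, 2 passed the test, Ccl6 and Ccl9. Over all tested genes 8071 of 14246 were positive, with a median of 0.04. In the block from 82035571 to 82305690 the 5 tested genes (Ccl2, Ccl7, Ccl11, Ccl12 and Ccl8) had a median of -0.03 in the same comparison. In the combination against brivanib the medians were -0.17 in the first block and -1.54 in the second. With brivanib against vehicle 4 of 5 were positive in each block, with medians of 1.1 and 0.67. These medians are descriptions over a few genes.

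Among members below the limit, 10 had a mean of 0.3 to 1 FPKM. Cxcr6, a receptor of resident and effector T cells, was at 3.04, 2.14 and 0.30 FPKM in vehicle and at no more than 0.495 in any treated library. The T cell score in those vehicle libraries was 2.02, 1.47 and 0.709. Cxcl13, which attracts B cells, was listed at 0 in vehicle and was at 3.11, 0.719 and 0.966 FPKM in the combination. Xcl1 reached 5.05 FPKM in brivanib 3. The lymphoid organ ligand Ccl21a was at 4.97 and 3.70 FPKM for its 2 gene IDs in cisplatin 3, at 0.634 and 0.488 in vehicle 2 and at 0 elsewhere, so that 1 library held nearly all of it. The others had means over the 12 libraries of 0.754 FPKM (Ackr4), 0.656 (Cx3cl1), 0.650 (Ccl17), 0.528 (Cxcr3, the receptor of Cxcl9 and Cxcl10) and 0.301 (Ccl1). The 14 members below 0.3 FPKM included Ccr3, Cx3cr1 and Cxcr5.

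Lists of the surrounding pathway were chosen by function, and their counts stand beside the 1.71% of all tested genes that rose with brivanib. Of 13 tested chemoattractants and receptors outside the family, 1 rose with brivanib: Rarres2 (chemerin, a macrophage attractant) was at 1.52, 1.24 and 3.79 FPKM in vehicle and at 140, 21.0 and 68.2 with brivanib (4.32 ± 0.71, adjusted p = 0.00859; 0.0501 without vehicle 3). Of 17 tested inducers of chemokine transcription, 1 rose, the interleukin-4 receptor Il4ra, from 12.1, 13.6 and 11.1 FPKM to 37.3, 22.5 and 43.8 (1.38 ± 0.23, adjusted p = 0.00970). Of 12 tested proteases and glycan genes that handle chemokines, 2 rose with brivanib. Mmp2, a protease that can cleave Cxcl12, rose by 3.11 ± 0.48 (adjusted p = 0.00653), and Tnfaip6, which binds chemokines, by 1.36 ± 0.29 (adjusted p = 0.0346). The call of Tnfaip6 was lost in 13 of 21 alternatives, among them without vehicle 2, 3 or 5 (adjusted p 0.104, 0.150 and 0.0623), cisplatin 1 or 2 (0.05002 and 0.0558), or brivanib 2 or 5 (0.0997 and 0.157). With the muscle or adipocyte covariate Il4ra and Mmp2 missed the threshold, and Rarres2 with the adipocyte covariate.

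In the combination the macrophage elastase Mmp12 fell by 1.79 ± 0.37 against vehicle (adjusted p = 0.0324), where 0.519% of all genes fell. It missed the threshold without vehicle 2, 3 or 5 (0.106, 0.108 and 0.0844) or combination 2, 3 or 4 (0.0992, 0.106 and 0.0514). Against brivanib, where 1.85% of all genes fell, Ctsc, the activator of neutrophil proteases, fell by 1.13 ± 0.24 (adjusted p = 0.0247; 0.0821, 0.0864 and 0.0929 without brivanib 5, combination 2 or combination 3). Tnfaip6 was at -1.18 ± 0.29 in the same comparison (adjusted p = 0.0455) and lost that call in 17 of 21 alternatives, among them without any 1 of 10 of the 12 libraries (adjusted p 0.0574 to 0.154). Of 22 tested genes of chemokine receptor signalling 0 passed in any of the 6 comparisons in limma. At an unadjusted p under 0.05 were 5 of them with brivanib, beside 1663 of all 14246 genes. In the combination against brivanib these counts were 7 and 3096.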

How the data were processed

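The deposited table gives FPKM for each transcript. The authors made these values with RSEM after Bowtie2 alignment, per the labels' design text; the submitters' processing notes give versions 1.2.12 and 2.2.5, also name HISAT and Bowtie, and list mm9, whereas the design text says mm10. Positions are those of the deposited table, and 67 of 68 members have the same coordinates in GENCODE M21 (GRCm38). In the table, 1 column matched no sample and was not used, and 3 broken lines were dropped.

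Transcript FPKM values were summed per gene ID. All 14246 genes with a mean of at least 1 FPKM were fitted with limma 3.58.1 (R 4.3.3) on log2(FPKM + 1), with all 12 libraries, a mean-variance trend and 8 residual degrees of freedom. Fold changes on that scale understate low genes. Tests were two-sided, with Benjamini-Hochberg adjustment over all genes and a threshold of 0.05. Whole fragments (within 0.01) were recovered from FPKM and length for limma-voom. The fit was tested on simulated data. 1 member and 1 sequence motif are not reported here. Text names every other called member, the 12 highest ligands, the 8 highest receptors, the 5 smallest p per comparison, and pathway genes past the threshold. Left out under the rule of the 5 smallest p were Ccl12 in the interaction and Ccr1 and Cxcr4 in the combination against cisplatin. Other genes were named after their values were seen. The members and lists were chosen with earlier results of these data known. Alternatives were the pseudocount, the filter, scaling, limma-voom, the groups fitted, marker scores as covariates, a replicate block and leaving out each library.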

Additional observations from a re-analysis of the deposited data

How the results depend on the processing

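Counts of called members depended on the settings. Of the fold changes recomputed in every alternative, those of members past the threshold kept their direction, and 1 other reversed: Ccl2 in the combination against vehicle, from -0.74 to 0.459 with the adipocyte covariate. For brivanib against vehicle, 6 members passed; 3 passed with a mean of at least 5 FPKM (which removes Ccl11 and Cxcl5 from the test), 0 with the muscle covariate and 1 with the adipocyte covariate (the share of all genes called went from 1.81% to 0.672%, 0.407% and 0.147%), and 3 to 7 with 1 library left out. For the combination against vehicle, 3 passed; 1 passed without a filter (Ccl27a, below the usual limit, while Ccl6, Ccl9 and Ccl12 missed the threshold), 0 with ribosomal-like features removed and equal totals, 1 with limma-voom, 0 with the adipocyte covariate (0.00702% of all genes, against 2.34%), and 0 to 3 with 1 library left out. For the combination against brivanib, 5 passed; 3 passed with a pseudocount of 0.1, 2 without a filter (Ccl12 and Ccl27a), 2 with a mean of at least 5 FPKM, 2 with only the groups compared, 2 with the muscle covariate, and 1 to 7 with 1 library left out. Over all genes the share called for the combination against vehicle was 0.395% without a filter, 1.61% with ribosomal-like features removed and 2.2% with limma-voom. For the combination against brivanib it was 2.97% with a pseudocount of 0.1 and 1.82% without a filter, against 3.87%. It was 3.09% at 5 FPKM, 0.969% with only the groups compared and 3.82% with the muscle covariate. The interaction went from 0 to 1 (Cxcl5, tested through the brivanib group) without brivanib 3. Cisplatin against vehicle and the combination against cisplatin stayed at 0 members in every setting. With 1 library left out, 0.814% to 1.98% of all genes were called for brivanib against vehicle. That range was 0.147% to 3.69% for the combination against vehicle and 0.428% to 4.53% for the combination against brivanib. Except for the removal of genes by the filter of 5 FPKM, the cause of these changes was not tested. Cxcl14 in brivanib kept its call in 20 of 22 alternatives, Ccl6 in 20 of 22 and Ccl11 in 19 of 21, each losing it with the muscle and adipocyte covariates; their lowest log2 fold changes over the alternatives were 4.17, 1.59 and 1.86.

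Replicate numbers are shared between groups, and the labels do not say what a number marks. Of 13 same-numbered pairs, 2 had deviations correlated above 0.1 (range -0.157 to 0.213), where other pairs ranged from -0.232 to 0.231. Of 3 vehicle libraries, 0 correlated best with the brivanib library of its number. With 3 libraries to a group, these correlations cannot settle whether a number marks a shared animal, litter or day. With the replicate block, 3 members passed in brivanib (Ccl11, Ccl6 and Cxcl14), 0 in the combination against vehicle, 5 in the combination against brivanib (Ccl12, Ccl5, Ccl8, Ccr2 and Cxcl14, so that Ccl11 and Cxcl5 lost their calls and Ccl5, Ccl8 and Ccr2 gained one) and 0 in the other comparisons. Over all genes the share called with the block was 1.36% in brivanib, against 1.81% without it. For the combination it was 0.246% against vehicle and 1.18% against brivanib, where 2.34% and 3.87% were called without the block. Depth limits the genes below 1 FPKM: Cxcl14 rested on 3 to 18 fragments in vehicle and Cxcl5 on 0 to 14.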
